A study of Homo sapiens with 4 samples.

Results

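Circular RNAs from the genes of the mitogen-activated protein (MAP) kinase cascade were followed in the MDA-MB-468 line, an established line of human breast cancer cells. A deposited row, called a circle here, is 1 back-splice position, where a downstream splice site has been joined to an upstream one. The set holds every circle not typed as antisense that named a gene whose symbol begins with MAP2K, MAP3K, MAP4K, MAPK or RPS6KA. It came to 1102 of 211599 rows, of which 1006 had counts and 96 were at 0 in all libraries. These circles held 11140 of 1702290 counts and came from 41 of the 14794 host genes with counts. The symbols alone chose them, so a few members are not MAP kinases: MAPKAP1, for example, is a subunit of mTOR complex 2, a growth-signalling kinase complex.

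All 4 libraries came from a radiation-resistant derivative of the line, selected with a total of 50 Gy, so every group shares that selection. The 2 controls carried a control short hairpin RNA (shCtrl), and the 2 knockdowns carried a stable one (shHNRNPL) that targets HNRNPL, a splicing regulator known to bind CA-rich RNA. The comparison asks which circles depend on HNRNPL. The labels' protocols name a single HNRNPL hairpin, and no parental line without irradiation is among these samples. The labels call the libraries of a group biological replicates without naming separate selections, so the p-values measure only the spread between these libraries. None of the rows named HNRNPL, so the knockdown rests on the labels.

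In the cascade, MAP4K and MAP3K kinases sense receptors or stress. MAP4K kinases act on MAP3K kinases, and these phosphorylate MAP2K kinases. The MAP2K kinases in turn activate the MAP kinases of the ERK, JNK, p38 and ERK5 branches. MAP kinases then act on transcription factors and on further kinases, such as the RSK and MSK enzymes (RPS6KA genes) and the MAPKAPK enzymes. In breast cancer cells the ERK branch is known for driving growth, and the JNK and p38 branches for responses to stress, radiation included. Circular RNAs of such genes are made from the same precursor RNA as the mRNA, so circular counts measure neither the mRNA nor the protein. In a library of many cells, fewer cells with a circle and less of it per cell cannot be told apart.

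Library totals ranged from 282737 to 556578 counts, and a count of 0 in a library allowed up to 3 counts, or 0.539 to 1.06 per 100000. Reads came from amplified cDNA without molecular identifiers, so all intervals cover counting error only. Values below are given in the order control 1, control 2, knockdown 1, knockdown 2. The member circles took 718, 691, 570 and 586 counts per 100000 of their library. Both knockdowns lay below both controls, at 578 ± 11.1 against 705 ± 18.8 (SD, n = 2 each), a ratio of 0.820. The two-sided exact permutation test gave p = 0.33, which is the smallest that 2 against 2 libraries allow. Exon circles alone gave 535 ± 10.0 in knockdowns against 607 ± 27.0 in controls. Intron circles gave 42.5 ± 1.09 against 97.8 ± 45.8. The intron share of the member counts was 18.1%, 9.46%, 7.32% and 7.39%, so control 1 stood apart. It stood apart in the same way over the whole table, with 19.7% against 9.93% to 10.6% in the other 3 libraries. Control 1 also held 322 member circles seen in no other library, against 136, 48 and 80 in the others. The part of this intron content in the gene results was not tested.

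The member circles were built much like the rest of the table. Exon circles of the set had a median length of 1185 nt and a median of 6 exons, against 1248 nt and 6 exons over all sense exon circles. The splice motif was recorded as AG-GT with no offset for 57.9% of them, against 54.9% of all sense exon circles. Most circles were rare: 885 of the 1006 had 1 to 9 counts and together held 23.1% of the member counts. Only 89 circles had counts in all 4 libraries. MAPK9 alone supplied 37.2% of the member counts, and 1 circle of MAPK9 supplied 32.2%.

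Of the 41 genes, 31 had at least 10 counts and entered the test. By edgeR's quasi-likelihood test no member had an adjusted p under 0.05, while 0.442% of 8379 host genes did. The smallest adjusted p among members was 0.128 (RPS6KA3). At an unadjusted p under 0.05 the test marked 5 members, 3 higher and 2 lower, against 13.8% of all host genes (7.58% higher and 6.19% lower). DESeq2 called 2 members, RPS6KA3 as higher and MAP3K20 as lower, where it called 2.21% of host genes. The knockdowns lay above both controls for 5 genes (16.1% of members, 15.3% of host genes) and below both for 15 (48.4% of members, 36.7% of host genes). The median log2 fold change was -0.15 for members and -0.26 for all host genes. Scaling by library size in place of TMM moved these medians to -0.52 and -0.58, so a change near 0 has no settled direction. Leaving out a control changed the calls: edgeR called 9 of 25 members without control 1 (25.1% of all host genes) and 11 of 31 without control 2 (36.3%), taking the lone control to vary like the knockdowns. Without either knockdown it called 0.

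**Figure D1:**
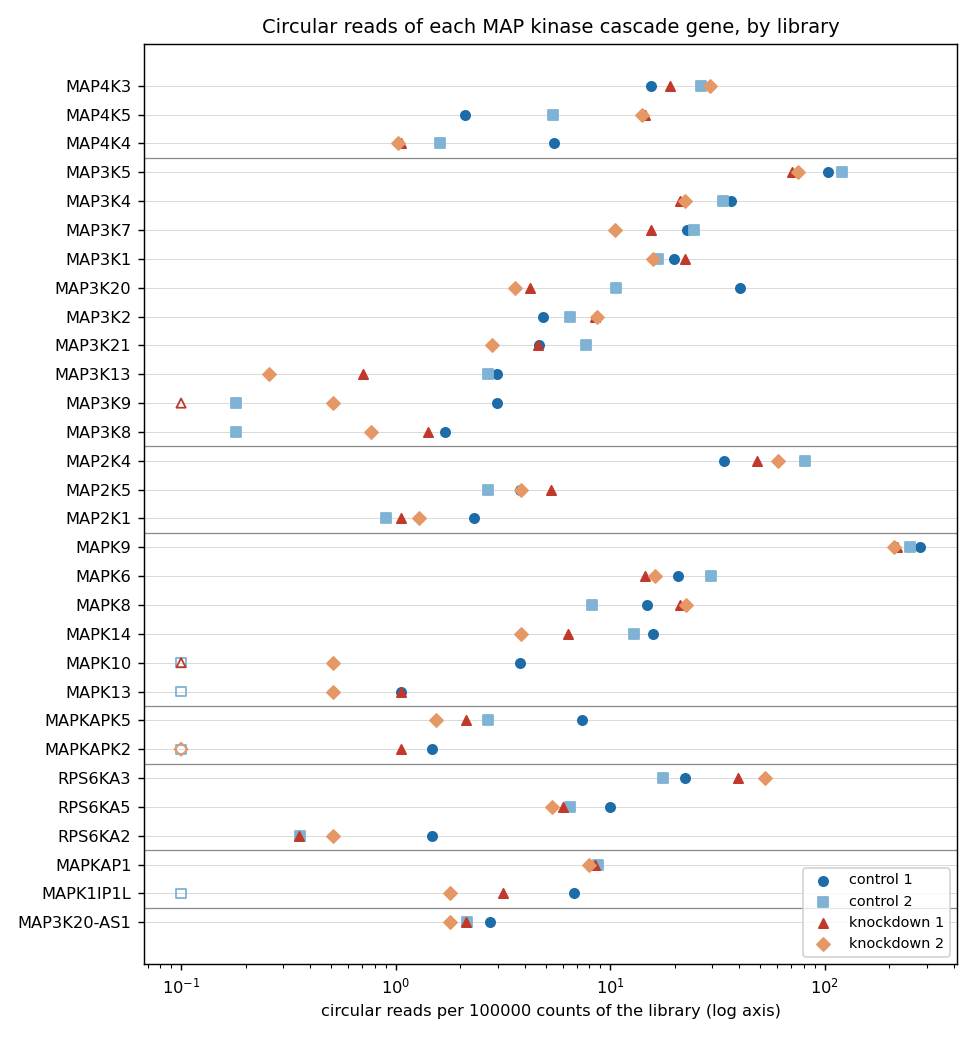
Circular counts per 100000 of the library (log axis) for 30 of the 31 tested genes, ordered by role, with 1 point per library; open symbols at the left mark a library with 0 counts. RPS6KA3, MAP4K5 and MAPK8 have both knockdowns to the right of both controls, MAP3K20 and MAPK14 have them to the left, and MAPK9 has the highest values in every library.

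**Figure D2:**
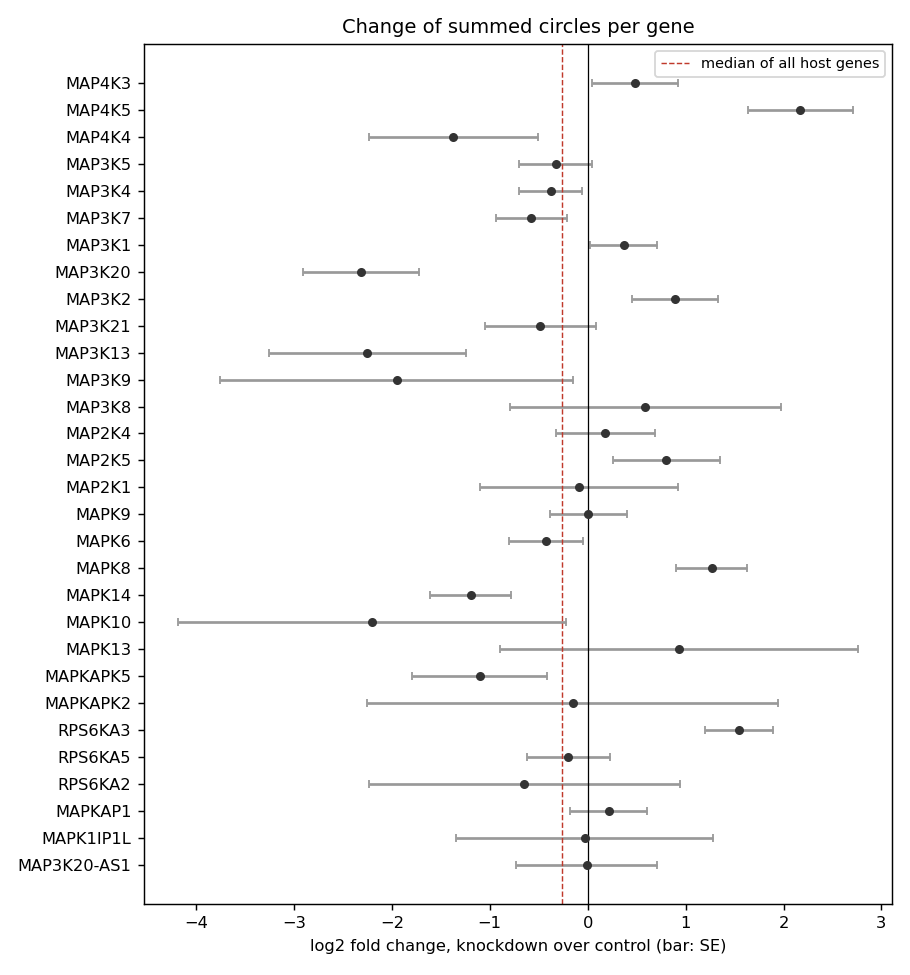
Log2 fold change of summed circles, knockdown over control, from edgeR for 30 of the 31 tested genes, with bars of 1 SE; the dashed line is the median of all host genes at -0.26. RPS6KA3 and MAP4K5 sit farthest to the right for their error, and MAP3K20 farthest to the left.

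At the top of the cascade, the MAP4K kinases link receptors and stress to the JNK branch. MAP4K5 had 10, 30, 41 and 55 counts, so its circles were scarcer in both controls. That was 14.3 ± 0.30 per 100000 in knockdowns against 3.75 ± 2.31 in controls (SD, n = 2 each), and the log2 fold change was 2.17 ± 0.54 (± SE here and below, edgeR adjusted p = 0.157). It was 1.64 without control 1 and 3.30 without control 2, and 2.76 with exon circles alone. The counts were spread over 40 circles. Its most counted circle, at chr14:50446079-50482416 with 12 exons, had 2, 4, 6 and 13 counts. MAP4K3, a kinase of amino acid and JNK signalling, had 73, 148, 54 and 114 counts, and its groups overlapped. Its log2 fold change was 0.48 ± 0.44, or 0.13 without control 1 and 1.24 without control 2. Within MAP4K3, a circle of a single 662-nt exon at chr2:39336920-39337581 was at 0 in both controls and had 2 and 19 counts in the knockdowns. As a group mean that is at least 4.75-fold higher, against a floor of 3 counts per library (adjusted p = 0.232 in edgeR). The bound rests on knockdown 2, since the 2 counts of knockdown 1 lie under the same floor. A pair of MAP4K3 circles tied as most abundant at 29 counts: that at chr2:39251830-39267247 had all 29 in control 2, and that at chr2:39307943-39326277 had 4, 11, 6 and 8. MAP4K4, a kinase upstream of JNK, had 26, 9, 3 and 4 counts, with both knockdowns lower (log2 fold change -1.37 ± 0.86, adjusted p = 0.494). Without control 1 its log2 fold change was -0.39. Exon circles of MAP4K4 had 11 and 9 counts in controls and 0 in both knockdowns, and intron circles 15, 0, 3 and 4.

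The MAP3K kinases were the group with the most genes, with 12 members, 10 of them tested, and 30.2% of the member counts. Both knockdowns lay below both controls for 6 of the 10 and above for 1, against 36.7% and 15.3% of host genes. Their median log2 fold change was -0.43, against -0.26 for all host genes. MAP3K20 (ZAK, a sensor of stalled ribosomes) had 190, 59, 12 and 14 counts. The knockdowns were alike at 3.91 ± 0.47 per 100000, while the controls spread widely at 25.4 ± 20.9. The log2 fold change was -2.32 ± 0.60 (edgeR adjusted p = 0.168), and it was -1.21 without control 1 and -2.80 without control 2. Intron circles held 72.4% of the MAP3K20 counts, and 1 of them, at chr2:173117214-173119096, had 48 counts in control 1 and none elsewhere. With exon circles alone MAP3K20 had 60, 2, 8 and 6 counts, so the groups overlapped and the log2 fold change was -1.26. Another MAP3K20 intron circle, at chr2:173088988-173091190, was present in all libraries, with 8, 12, 2 and 1 counts. The pooled knockdown to control ratio of that circle was 0.229, with an exact 95% counting interval of 0.0436 to 0.773.

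MAP3K5 (ASK1, which couples oxidative stress to JNK and p38) was the second most counted gene, with 491, 674, 200 and 294 counts. Per 100000 the knockdowns were lower, at 73.0 ± 3.21 against 113 ± 12.1, although the TMM-scaled log2 fold change was only -0.33 ± 0.37 (adjusted p = 0.722). Without control 2 its sign turned, to 0.07. A single donor edge, chr6:136694140, closed 9 MAP3K5 circles that held 57.5% of its counts. The leading pair both used it. The circle to position 136698682 (4 exons, 641 nt) had 137, 249, 65 and 91 counts, and that to position 136720589 (6 exons, 805 nt) had 122, 115, 34 and 51. Both circles had both knockdowns below both controls, with log2 fold changes of -0.70 ± 0.32 and -0.97 ± 0.39 (adjusted p = 0.428 and 0.362 in edgeR). Genes and circles had separate TMM factors. With library-size scaling for both, these circles gave -0.67 and -0.89, beside -0.62 for the gene.

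MAP3K4 (MEKK4, upstream of p38 and JNK) had 173, 187, 60 and 87 counts. Its replicates were close, at 35.1 ± 2.14 per 100000 in controls and 21.7 ± 0.75 in knockdowns, and the groups did not overlap. The log2 fold change was -0.38 ± 0.32, or -0.69 when libraries were scaled by size. Its main circle, 2 exons and 1555 nt at chr6:161034259-161049979, had 86, 105, 32 and 42 counts and made up 48.3% to 56.1% of the gene in each library. MAP3K7 (TAK1, which serves TGF-beta and interleukin receptors) had 108, 137, 44 and 41 counts, also without overlap (log2 fold change -0.58 ± 0.36, adjusted p = 0.494). Its circles were many and none dominated. The most counted one, at chr6:90536337-90571807 with 11 exons, had 13, 14, 3 and 4 counts. A 10-exon MAP3K7 circle at chr6:90547258-90579028 had 3 and 10 counts in controls and 0 in both knockdowns, at least 1.33-fold lower.

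MAP3K1 (MEKK1, a kinase that is also a ubiquitin ligase) had 94, 93, 63 and 62 counts, with overlapping groups per 100000. Its main circle joined 18 exons over 3907 nt at chr5:56856600-56888357 and had 21, 32, 31 and 20 counts. MAP3K2 (MEKK2, upstream of ERK5) was the only tested MAP3K gene with both knockdowns above both controls, at 23, 36, 24 and 34 counts (log2 fold change 0.89 ± 0.44, adjusted p = 0.412). A 1423-nt MAP3K2 circle at chr2:127306181-127307603 was at 0 in both controls and had 4 and 6 counts in knockdowns, at least 2.51-fold higher. It tied as most counted with a 7-exon circle at chr2:127322046-127330505, which had 0, 4, 1 and 5. MAP3K13 (LZK, a stress kinase best known in neurons) had 14, 15, 2 and 1 counts. Its pooled ratio was 0.158, with a counting interval of 0.0308 to 0.510, and edgeR gave an adjusted p of 0.379. MAP3K21, MAP3K9 and MAP3K8 had 89, 17 and 16 counts in all and adjusted p-values from 0.650 to 0.879.

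Among the MAP2K kinases, MAP2K4 (MKK4, which activates JNK and p38) led with 161, 451, 137 and 236 counts. Its groups overlapped, since control 2 was the highest and control 1 the lowest per 100000. Its log2 fold change was 0.18 ± 0.50 and turned to -0.08 when libraries were scaled by size. Of these counts 90.9% lay in circles that also named MIR744, a microRNA gene inside MAP2K4. The main circle had 6 exons and 698 nt, at chr17:12054889-12113360, with 83, 264, 71 and 116 counts. MAP2K5, the activator of ERK5, had 18, 15, 15 and 15 counts, which put both knockdowns above both controls per 100000 (log2 fold change 0.80 ± 0.55, adjusted p = 0.522). MAP2K1 (MEK1 of the ERK branch) had 24 counts in all.

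The 7 MAP kinase genes were all tested and held 46.4% of the member counts. MAPK9 (JNK2) had 1322, 1387, 614 and 820 counts. Per 100000 the knockdowns were lower, at 214 ± 5.09 against 265 ± 21.7, but the TMM-scaled log2 fold change was 0.005 ± 0.39. Scaling by library size gave -0.31, beside a median of -0.58 over all host genes. The dominant MAPK9 circle, at chr5:180261684-180280608, had 1097, 1214, 546 and 734 counts. It made up 83.0%, 87.5%, 88.9% and 89.5% of the gene. The deposited structure lists 4 isoforms for it, the first with exons of 169, 241, 130, 59 and 139 nt. A longer MAPK9 circle took in 1 more upstream exon of 93 nt, at chr5:180261684-180287067. It had 44, 58, 9 and 8 counts, and the knockdowns lay far below the controls at 2.62 ± 0.80 against 9.87 ± 0.78 per 100000. Its log2 fold change was -1.98 ± 0.45 (edgeR adjusted p = 0.156), beside -0.32 ± 0.30 for the dominant circle. Genes and circles had separate TMM factors, so the log2 fold changes of a gene and of its circles are not on the same scale. With library-size scaling for both, the dominant circle gave -0.24, beside -0.31 for the gene.

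MAPK8 (JNK1), the close relative of MAPK9, had 70, 46, 60 and 88 counts, of which exon circles held 43, 39, 54 and 83. Both knockdowns were higher, at 21.9 ± 0.93 per 100000 against 11.5 ± 4.63, with a log2 fold change of 1.27 ± 0.36 (edgeR adjusted p = 0.206). Its leading circle, of 4 exons at chr10:48401612-48410168, had 5, 15, 41 and 65 counts. That circle was at 15.6 ± 1.51 per 100000 in knockdowns and 1.88 ± 1.16 in controls. Its log2 fold change was 3.0 ± 0.47 (edgeR adjusted p = 0.0984). It was 2.69 without control 1 and 3.70 without control 2. All other MAPK8 circles together had 65, 31, 19 and 23 counts, and there the groups overlapped. The leading circle thus went from 7.14% and 32.6% of the gene in controls to 68.3% and 73.9% in knockdowns. It was picked by its total, which came mainly from the knockdowns, so part of this shift can follow from that choice. Its exons measured 171, 130, 59 and 139 nt. The last 3 lengths were the same as those in the dominant MAPK9 circle, and a 497-nt isoform of the MAPK9 circle had exons of 169, 130, 59 and 139 nt. The circles of these related genes, alike in exon sizes, gave log2 fold changes of 3.0 for MAPK8 and -0.32 for MAPK9; a difference between the 2 genes was not tested.

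MAPK14 (p38 alpha) had 75, 72, 18 and 15 counts, with a log2 fold change of -1.20 ± 0.42 (edgeR adjusted p = 0.279). Intron circles held 82.2% of these, and 1 of them, chr6:36077140-36095866, had 39 counts in control 2 and 0 elsewhere. Exon circles of MAPK14 had 20, 2, 6 and 4 counts, with overlapping groups and a log2 fold change of -0.23. MAPK6 (ERK3, an atypical MAP kinase) had 98, 164, 41 and 63 counts, and the knockdowns were lower. Most of its counts, 81.1%, were in circles that also named another gene at the locus, and circles naming MAPK6 alone gave a log2 fold change of 0.29 in place of -0.42 ± 0.38. The main MAPK6 circle joined 2 exons over 1331 nt at chr15:52045830-52050137 and had 61, 119, 26 and 39 counts (log2 fold change -0.86 ± 0.36, edgeR adjusted p = 0.382). With library-size scaling for both, that circle gave -0.84, beside -0.71 for the gene. MAPK10 (JNK3, mainly a neuronal kinase) had 18, 0, 0 and 2 counts, nearly all in control 1.

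Below the MAP kinases, RPS6KA3 (RSK2, a growth-promoting kinase activated by ERK) had the smallest p of the set. Its counts were 105, 98, 112 and 207, or 46.3 ± 9.47 per 100000 in knockdowns against 19.9 ± 3.27 in controls. The log2 fold change was 1.54 ± 0.35 (edgeR adjusted p = 0.128), and 1.22 with library-size scaling. Exon circles held 95.8% of the RPS6KA3 counts and alone gave a log2 fold change of 1.62. The groups lay farthest apart in the circles that closed at 1 donor edge, chrX:20162964. These 11 circles had 4, 23, 65 and 117 counts, at 26.5 ± 4.93 per 100000 in knockdowns and 2.49 ± 2.32 in controls. All other RPS6KA3 circles had 101, 75, 47 and 90 counts and overlapped, at 19.8 ± 4.54 and 17.4 ± 5.59. The edge was singled out after its values were seen, so this split has no test.

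RPS6KA3 circles at this edge differed in how many exons they took in upstream. The shortest of those with at least 10 counts had 5 exons and ran to position 20172871, with 0, 4, 7 and 13 counts. The most counted had 8 exons and 907 nt, ran to position 20176498 and had 2, 6, 25 and 45 counts. Its log2 fold change was 3.67 ± 0.53 (edgeR adjusted p = 0.0949, the smallest over all member circles). It was 3.39 without control 1 and 4.36 without control 2. The 10-exon circle to position 20186366 had 2, 4, 15 and 30 counts (3.40 ± 0.57, adjusted p = 0.104). The 11-exon circle to position 20187970 had 0, 2, 5 and 12, a pooled ratio of 13.0 with a counting interval of 3.08 to 116. Of the 11 circles at the edge, the 5 with at least 10 counts had both knockdowns above both controls. The circles given here reached that total mainly through the knockdowns, at an edge picked by its values, so this count is no support. A further RPS6KA3 circle, at chrX:20169402-20204103 with 13 exons and a different donor, had 1, 3, 5 and 13 counts. The most counted circle remained a minor part of the gene, at 1.90%, 6.12%, 22.3% and 21.7%. It was picked by a total that came mainly from the knockdowns, so part of this shift can follow from that choice.

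RPS6KA5 (MSK1, a nuclear kinase of histone H3) had 47, 36, 17 and 21 counts and a log2 fold change of -0.20 ± 0.43, which became 0.21 with exon circles alone. Its most counted circle, at chr14:90890487-90906299, had 5, 6, 4 and 5 counts. RPS6KA2 and RPS6KA6 had 12 and 4 counts in all. MAPKAPK5, which binds and is activated by ERK3, had 35, 15, 6 and 6 counts, with the knockdowns lower (log2 fold change -1.10 ± 0.69, adjusted p = 0.494, or -0.35 without control 1). MAPKAPK2, the p38-activated regulator of mRNA stability, had 10 counts in all.

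MAPKAP1 (SIN1) was the only member called for unequal change among its circles. The F test of circle use in edgeR gave it an adjusted p of 0.0357, with 1 of 17 members called against 3.95% of 2327 genes. As a sum MAPKAP1 had 41, 49, 24 and 31 counts, or 8.21 ± 0.39 per 100000 in knockdowns against 8.74 ± 0.09 in controls. This sum joined unlike parts: exon circles had 12, 23, 18 and 28 counts, higher per 100000 in both knockdowns, and intron circles had 29, 26, 6 and 3, lower in both. Exon circles alone gave MAPKAP1 a log2 fold change of 1.28 (edgeR adjusted p = 0.279), beside 0.21 ± 0.39 for the sum. A 3-exon circle at chr9:125657651-125672643, with exons of 328, 90 and 149 nt, had 0, 1, 11 and 18 counts. Its pooled ratio was 44.3, with a counting interval of 7.35 to 1810, and its edgeR adjusted p as a single circle was 0.113. It is of exon type and made up 11 of the 18 and 18 of the 28 exon counts in knockdowns, against 0 of 12 and 1 of 23 in controls. The higher exon counts and the exon-only log2 fold change of 1.28 thus rest mainly on this circle. All other MAPKAP1 circles had 41, 48, 13 and 13 counts, so they were lower in both knockdowns. The second most counted of the 3 circles tested in it, of intron type at chr9:125520889-125525292, had 6, 8, 0 and 0 counts, at least 1.48-fold lower. The leading circle went from 0% and 2.04% of the gene to 45.8% and 58.1%. It was picked by its total, which came almost wholly from the knockdowns. Part of this shift, and of the fall in the other circles, can follow from that choice. The call did not hold everywhere: Simes' method gave 0.156, and leaving out knockdown 1 or 2 gave 0.995 and 0.985. MAPK1IP1L had 32, 0, 9 and 7 counts, and MAP3K20-AS1, the only non-coding gene tested, had 13, 12, 6 and 7.

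**Figure D3:**
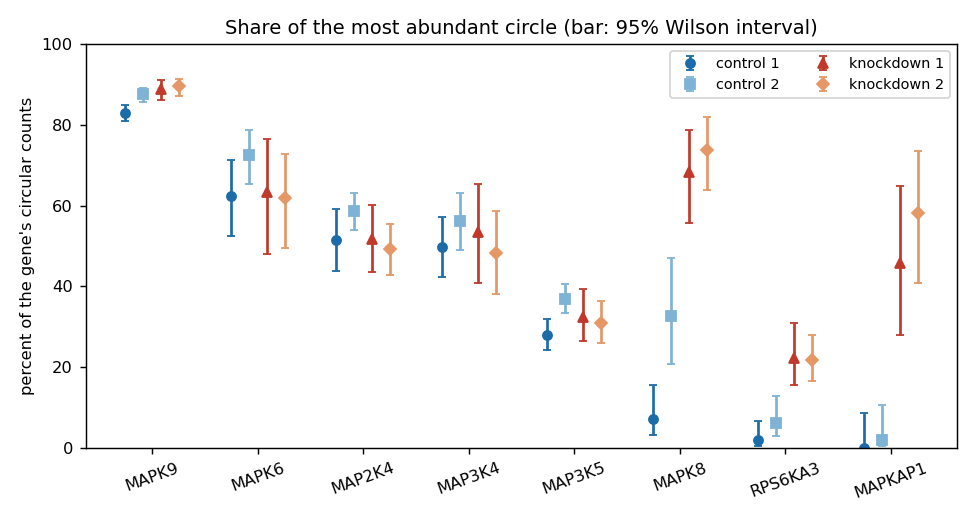
Share of each gene's circular counts taken by its most abundant circle, in percent, by library, with bars of the 95% Wilson interval (counting error only). In MAPK8, RPS6KA3, MAPKAP1 and, by a few points, MAPK9 both knockdowns lie above both controls; in MAPK6, MAP2K4, MAP3K4 and MAP3K5 they do not. The 8 genes drawn were chosen after their values were seen. Each circle was picked by its total over the 4 libraries, which in MAPK8, RPS6KA3 and MAPKAP1 came mainly from the knockdowns, so their shifts partly follow from that choice.

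Over all member circles, 121 had at least 10 counts and were tested singly. No member circle had an adjusted p under 0.05 by edgeR, and neither did any of the 21576 circles tested in the table (0%). At an unadjusted p under 0.05 there were 16, with 13 higher and 3 lower, against 13.6% of all circles (9.29% higher and 4.26% lower). DESeq2 called 6: the MAP4K3 single-exon circle, the leading MAPK8 and MAPKAP1 circles, the longer MAPK9 circle and the 8-exon and 10-exon RPS6KA3 circles. It called 4.88% of the whole table. The knockdowns lay above both controls for 22 circles (18.2%, against 23.2% of all circles) and below both for 39 (32.2%, against 22.9%). Without control 1, edgeR called 28 of 91 member circles (28.2% of all circles), and without control 2 it called 34 of 79 (43.4%). Without either knockdown it called 0. Member circles also differed more between the controls than between the knockdowns. The mean chi-square per circle was 12.1 over 16 member circles in controls and 1.22 over 13 in knockdowns. Over the whole table it was 18.01 (2856 circles) and 2.28 (2078 circles). A chi-square grows with counts, and both control libraries had higher totals than both knockdowns.

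**Figure D4:**
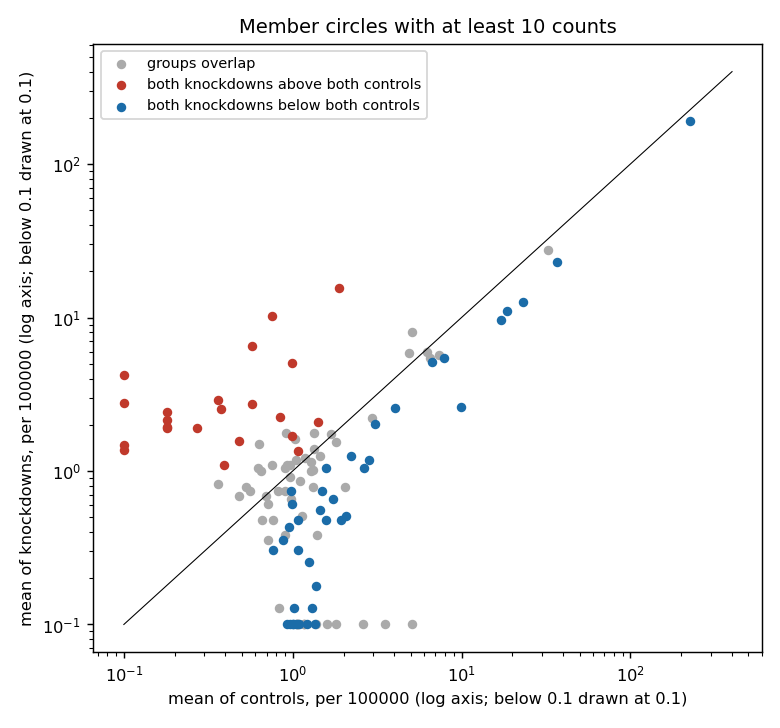
Mean counts per 100000 in controls and in knockdowns (both log axes, values under 0.1 drawn at 0.1) for the 121 member circles with at least 10 counts, with the line of equality. The 22 circles with both knockdowns above both controls mostly had control means under 1 per 100000, while the 39 with both below include the most abundant MAPK9 circle.

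Each of the leading RPS6KA3, MAPK8, MAPKAP1 and MAPK9 circles was recorded with an AG acceptor, a GT donor and no offset. Others named above were recorded with an offset, among them the 1423-nt MAP3K2 circle, the most counted MAPK14 intron circle and the 10-exon MAP3K7 circle, and the MAP3K20 intron circle seen in control 1 alone was recorded as AG-AT. The deposited table also has a column of equivalent sequence, which by its name holds the letters that both edges share: GGTG for the 8-exon RPS6KA3 circle, AGGTA for the MAPKAP1 circle, CAGGTT for the main MAPK6 circle and a single G for the MAPK8 and MAPK9 circles. Longer sequence around these edges, with any CA repeats that HNRNPL could bind, was not analysed here.

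Other genes of the pathway were followed through a list of 68, none with a member's symbol, of which 44 were tested. None was called by edgeR, with 8 at an unadjusted p under 0.05 (13.8% of all host genes), 19 above 0, 25 below 0 and a median log2 fold change of -0.25. DESeq2 called SH3RF1 and ELK4 as higher, where it called 2.21% of host genes. Leaving out control 1 moved the list's median log2 fold change in edgeR to 0.073, against 0.018 for all host genes. Without control 2 these medians were -0.17 and -0.13. SH3RF1 (POSH, a scaffold for JNK signalling) had 22, 7, 51 and 77 counts, higher in both knockdowns (log2 fold change 3.04 ± 0.53, adjusted p = 0.0592 in edgeR). edgeR called SH3RF1 with DESeq2 size factors, each other filter on low counts, both other gene definitions or exon circles alone, and did not with library-size scaling or the newer dispersion method. ELK4, a transcription factor acted on by ERK, had 190, 201, 225 and 281, and SOS1, which loads RAS with GTP, had 124, 120, 121 and 182. Both were higher per 100000 in both knockdowns, with adjusted p-values of 0.173 and 0.182 in edgeR. On the lower side, NRAS had 52, 32, 2 and 7 counts (log2 fold change -2.31 ± 0.64, adjusted p = 0.198). SPRED2, an inhibitor of RAS signalling, had 39, 18, 3 and 0, and RPS6KB1, the S6 kinase, had 29, 35, 2 and 9. All 6 tested phosphatases of the list had log2 fold changes below 0, as had 4992 of 8379 host genes. DUSP4, DUSP22 and DUSP10 among the 6 were sparse, with 12, 18 and 24 counts in all. The median of the 6 was -1.21, and 1 of them had an unadjusted p under 0.05 in edgeR. The knockdowns lay below both controls for 4 of the 6, against 36.7% of host genes. Without control 2, 1 of the 5 phosphatases still tested was above 0.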

How the data were processed

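The authors deposited raw counts, whole numbers with 1 row per back-splice position, together with circle type, exon structure and gene names written by CIRI-long, per the file headers. A second deposited table of scaled values was not used. The submitters' processing notes name the build GRCh38.p14 and DESeq2. The base caller, aligner and filters are not given in the sources used here. The cDNA was copied from random primers with Induro reverse transcriptase and amplified with phi29 polymerase, per the labels' protocols. Groups came from the sample titles.

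A host gene was the sum of all circles not antisense that name it, so a circle naming several genes counts in each. 142 antisense member rows were left out. The tests cover all members, but 1 gene is not reported here singly. The test was edgeR 4.0.16 (R 4.3.3), quasi-likelihood with TMM scaling and library totals over the whole table, on features with at least 10 counts over the 4 libraries, with Benjamini-Hochberg adjustment over all and a threshold of 0.05. Circle use was tested with diffSpliceDGE on genes with at least 2 tested circles. Genes, circles and circle use were fitted separately, each with its own TMM factors. SE is the log2 fold change divided by the root of F. DESeq2 1.42.0 and other settings were run as alternatives. The scripts were tested on simulated counts. Same-numbered libraries did not deviate together (correlation 0.0706 over 4944 circles), and the sample titles name no pairing, so the main test used none. Whether same-numbered libraries shared a preparation was not tested. Genes were named as the 8 higher and 8 lower members with the smallest p and the 3 most counted in each role. Circles were named as the 8 higher and 8 lower with the smallest p and the most counted of each named gene with at least 100 counts. The members, lists and rules were chosen with earlier results of these data known. Coordinates are those of the deposited table.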

Additional observations from a re-analysis of the deposited data

How the results depend on the processing

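The number of member genes called was 2 with DESeq2, 3 with no filter on low counts and 3 with the replicate block, and stayed at 0 under the other settings; leaving out 1 library gave 0 to 11. For member circles, DESeq2 called 6 and the replicate block 9; without a filter 5 were called, from at least 5 counts in each of 2 libraries 6, and from at least 40 counts 4, and leaving out 1 library gave 0 to 34. Circle use was called in 0 genes with at least 40 counts, 0 with Simes' method and 4 with the replicate block, and in 0 to 8 with 1 library left out. The sample titles do not say that same-numbered libraries are paired, so the replicate block was run only as an alternative. With no filter, 3 of 41 member genes were called, against 2.49% of host genes, and with the replicate block 3 of 31, against 3.58%. Among circles the replicate block called 9 of 121 (7.51% of all circles) and no filter 5 of 1006 (0.248%). At least 5 counts in each of 2 libraries gave 6 of 63 (12.1%), and at least 40 counts 4 of 22 (11.4%). Circle use with the replicate block was called in 4 of 17 members, against 23% of all genes. With at least 40 counts it was called in 0 of 4 members, against 135 of 784 genes. With Simes' method it was called in 0 of 17 members, against 53 of 2327 genes. With 1 control left out, circle use was also called widely over all genes, and a lone control gives no spread of its own. The member calls there thus do not single out the members. Differences from these shares were not tested. The median log2 fold change of member genes was -0.52 with library-size scaling, -0.39 with no filter and 0.083 with exon circles only, and -0.22 to 0.014 with 1 library left out. The difference in member counts per 100000 was -71.4 with exon circles only, -92.1 without the most abundant circle and -140 to -113 with 1 library left out; these were added after seeing the data. The cause of these changes was not tested.

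The sign turned for 10 genes and 1 circle of those named by the rule, under the settings below. Outside that rule, MAP3K21 and MAP3K8 also turned without control 2, to 0.20 and -0.12. With library-size scaling MAP2K4 gave -0.081, MAPK9 -0.31 and MAPKAP1 -0.091; MAPK9 also gave -0.057 with no filter, -0.026 with at least 40 counts and -0.019 with exon circles only. With exon circles only MAP2K1 gave 0.37, RPS6KA5 0.21 and MAPK1IP1L 0.017. With circles naming 1 gene MAP3K20-AS1 gave 0.72, MAPK1IP1L 0.53 and MAPK6 0.29, and with the first gene named MAP3K20-AS1 gave 0.73 and MAPK1IP1L 0.0035. With DESeq2 size factors MAP3K20-AS1 gave 0.0087 and MAPK1IP1L 0.0064, with DESeq2 they gave 0.011 and 0.023, and MAPK1IP1L gave 0.86 with the replicate block. With 1 library left out, MAP2K1 ranged from -0.39 to 0.62, MAP2K4 from -0.33 to 1.26, MAP3K20-AS1 from -0.074 to 0.098, MAP3K5 from -0.49 to 0.066, MAPK1IP1L from -0.92 to 6.43, MAPK6 from -0.70 to 0.14, MAPKAPK2 from -1.09 to 0.92, RPS6KA5 from -0.24 to 0.044 and the main MAP2K4 circle from -0.62 to 0.50.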
